A study of Caenorhabditis elegans with 9 samples.

Results

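The X chromosome carried 911 of the 4688 EGL-5 binding regions that the authors called in third-stage (L3) larvae of C. elegans. The members are all peaks of the authors' combined list whose chromosome is X, with positions on the WormBase WS190 build. The worms were L3 hermaphrodites of strain OP54. All of them carried the unc-119(ed3) mutation on chromosome III and the transgene wgIs54, in which a working copy, unc-119(+), is joined to the tagged gene egl-5::TY1::EGFP::3xFLAG. The transgene was brought in by bombardment, and the genotype lists no mutation of the worm's own egl-5. Chromatin from whole larvae was precipitated with goat antibodies against GFP and sequenced (ChIP-seq) in 2 ChIP libraries of replicate 1 and 2 of replicate 2, beside 5 input libraries, all titled replicate 2. Input is total DNA of the lysate without the antibody step. The authors deposited 1 peak list per replicate and the combined list, with a q-value for each peak from the program PeakSeq. X held 442 of the 2420 peaks of replicate 1 and 318 of the 1345 peaks of replicate 2. The lists hold no read counts, so the depth is unknown and equal q-values in different lists need not mean equal signal. Nothing in the labels says that the replicates came from separate cultures, so differences between their lists may be technical.

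EGL-5 is a homeodomain protein of the Hox family and is related to Abdominal-B of Drosophila. It patterns the tail of the worm, and its gene lies on chromosome III in the gene table. Hermaphrodites carry a pair of X chromosomes, on which the dosage compensation complex lowers transcription. The X is known to be poor in genes active in the germline. It also lacks much of the contrast seen on the autosomes between gene-rich centres and repeat-rich arms.

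The X peaks of lowest q were found in both replicates, which here means an overlap of at least 1 bp with a peak of each replicate list. Of all 911 X peaks, 189 (20.7%, 95% Wilson interval 18.2 to 23.5) were found in both, against 18.9% of the whole combined list. All 10 of the 10 lowest, 48 of the 50 lowest and 89 of the 100 lowest X peaks were so found. A combined peak and its partners in the replicates can stem from shared reads, and the order is given as a description. The 10 peaks were 389 to 9545 bp wide, with a median of 780 bp, and they fell in 8 different 1 Mb bins of X, the bins from 8000001 to 9000000 and from 16000001 to 17000000 holding 2 each.

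The first peak, from 16929306 to 16932008, was 2703 bp wide and had q = 2.77e-30 in the combined list. In the replicate 1 list its partner had q = 2.25e-07, rank 20 on X, and in the replicate 2 list it had q = 2.35e-24, rank 1. The replicates thus gave this site very different ranks. The second peak, from 8763929 to 8764395, was 467 bp wide and had q = 7.48e-30 in the combined list. Its partners had q = 5.67e-15 in replicate 1 and 6.41e-15 in replicate 2, ranks 1 and 2 on X. It is the site of X that both replicate lists put at or next to the top. The fifth, from 11093830 to 11094352, had q = 9.83e-21, with partners at 1.25e-08 (rank 9) in replicate 1 and 4.95e-13 (rank 4) in replicate 2. The eighth, from 1167274 to 1167662, was the narrowest of the 10 and ranked 2 on X in replicate 1 and 22 in replicate 2, with q = 1.66e-10 and 4.12e-07. Over the remaining 6 of the 10, the rank on X ran from 6 to 137 in replicate 1 and from 3 to 55 in replicate 2.

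The 5 widest X peaks were 3077 to 9545 bp wide, and 4 of them were found in both replicates. The widest, from 6736367 to 6745911, met 2 peaks of each replicate list. The partner of lowest q covered 6736473 to 6738054 in replicate 1 (q = 0.000392, rank 137) and 6739659 to 6744688 in replicate 2 (q = 3.97e-14, rank 3). These 2 partners had no base in common. The other partner in each list is not described here, so this does not show that the lists lacked overlap within the region. The second widest, from 8017140 to 8022136, also met 2 peaks of each replicate list. Its partner of lowest q was 3337 bp wide in replicate 1 (q = 2.72e-09, rank 6). In replicate 2 it was 942 bp wide (q = 3.05e-05, rank 55), and both ended at the same base, 8020483. The peak from 4144049 to 4147139, 3091 bp wide, was found in replicate 2 only. The 2 widest regions were thus 1 peak in the combined list but met 2 peaks in each replicate list. Over all of X, 5 combined peaks met 2 peaks of replicate 1 and 5 met 2 peaks of replicate 2, while none met 3.

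Regions were denser on X than on each of chromosomes II to V in all 3 lists. X held 52.5 peaks per Mb in the combined list, against 33.6 on V, 40.2 on II, 43.5 on III and 44.5 on IV. Pooled, chromosomes II to V held 2688 peaks, or 39.96 per Mb, so X was 1.31 times as dense (exact 95% interval of the ratio 1.22 to 1.42). In replicate 1 X had 25.5 peaks per Mb and chromosomes II to V 19.97, a ratio of 1.28 (1.14 to 1.42). In replicate 2 these densities were 18.3 and 13.3, a ratio of 1.38 (1.21 to 1.57). Against single chromosomes, the interval included 1 for chromosome IV in replicate 1 (1.14, 0.992 to 1.31). Chromosome I was left out by the rule that set the comparison. It was denser than X in the combined list, with 72.4 peaks per Mb, and in replicate 1, with 42.2, and less dense in replicate 2, with 8.84. Against chromosomes I to V the ratio was 1.14 (1.06 to 1.23) in the combined list, 1.06 (0.954 to 1.18) in replicate 1, an interval that included 1, and 1.47 (1.29 to 1.67) in replicate 2. Peaks called on X covered 470 kb in the combined list, or 2.71% of its span, against 1.75% to 2.14% of the spans of chromosomes II to V. Intervals cover the counting error of peaks only. Peaks are not independent replicates, so no p-value is given.

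Set against genes in place of length, the difference was larger. The gene table, on build WBcel235, lists 2730 protein-coding genes on X and 14364 on chromosomes II to V. By these numbers X had 33.4 combined peaks per 100 protein-coding genes, against 14.1 on V, 17.8 on II, 22.6 on III and 23.6 on IV. Chromosome I, outside the comparison, was above X with 37.9. In replicate 1 it was also above X, with 22.1 against 16.2, and in replicate 2 below, with 4.62 against 11.6. The ratio of X to chromosomes II to V was 1.78 (1.65 to 1.92) in the combined list, 1.73 in replicate 1 and 1.87 in replicate 2. No peak was assigned to a gene.

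Along X, the first 2 Mb were sparse and the other bins held similar numbers. The 17 full bins of 1 Mb held between 19 and 66 combined peaks, with a median of 53. The first bin held 19 peaks and the second 32. They were also the lowest in replicate 1, with 10 and 14 peaks against 22 to 34 in the other 15 bins. In replicate 2 the first bin held 5 peaks and was the lowest, and the second held 12, as did 2 further bins. The third sparsest bin of the combined list, from 15000001 to 16000000, held 44. The densest, from 4000001 to 5000000, held 66, and the bins from 3000001 to 4000000 and from 12000001 to 13000000 held 62 each. The first peak of any list on X began at base 324037, whereas those of chromosomes II to V began between bases 1272 and 78282. The part of mappability in this was not tested.

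**Figure D1:**
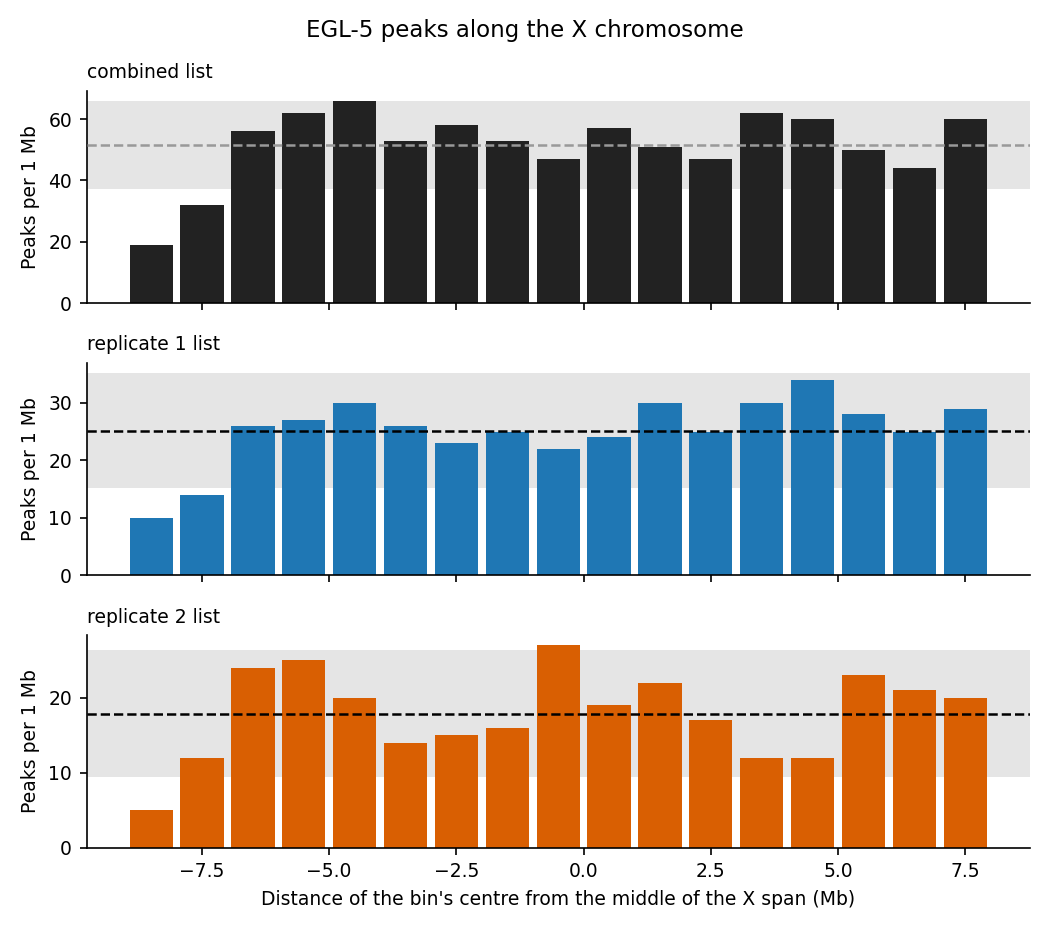
Number of EGL-5 peaks in each full 1 Mb bin of X in the 3 lists, by distance of the bin from the middle of the span; the dashed line is the mean over the 17 bins and the grey band spans 2 square roots of the mean on either side, the spread that uniform placement would give. The 2 bins at the left end hold 19 and 32 combined peaks, below the band, and the other 15 hold 44 to 66. The bin with 66 lies just above the band. In replicate 1, 2 bins lie below the band, and in replicate 2, 1 lies below and 1 above.

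The variance of the bin counts over their mean is about 1 where peaks are placed uniformly. Under uneven placement this ratio also depends on the mean count per bin, so values of different lists are not like for like. On X it was 2.68 over the 17 bins of the combined list, against 4.31 on IV, 5.10 on III, 9.43 on V and 10.02 on II. In replicate 1 it was 1.36 on X, against 2.39 to 6.08 on II to V. In replicate 2 it was 1.86 on X, above the 1.37 of IV, with 2.26 to 4.54 on the other 3. The first 2 bins of X held its fewest combined peaks, so leaving them out was bound to lower its ratio. Without the first 2 Mb, which was tried after seeing the data, the ratio on X was 0.754 in the combined list, 0.384 in replicate 1 and 1.15 in replicate 2. Leaving out the first 2 Mb of chromosomes II to V left ratios between 4.01 and 10.1 in the combined list, between 2.17 and 5.62 in replicate 1 and between 1.41 and 4.76 in replicate 2. On those chromosomes the stretch was taken by position and not for its low counts, so the comparison with X is not like for like.

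The bin counts of the 2 replicates were only weakly correlated along X. Over the 17 bins the counts of replicate 1 and replicate 2 had a Pearson r of 0.42 and a Spearman rho of 0.14, given as a description of bins that share 1 chromosome. Outside the first 2 Mb the variance over mean was 0.384 in replicate 1 and 1.15 in replicate 2, against about 1 under uniform placement. The counts there thus varied less than counting error in replicate 1 and little more than it in replicate 2. The bins left out were among the lowest of each list, so leaving them out was bound to lower these ratios. Whether the replicates differed beyond counting error was not tested. The bins named next were chosen after their values were seen. From 12000001 to 14000000, replicate 1 had 30 and 34 peaks in the 2 bins, 34 being its highest count on X, while replicate 2 had 12 in each. From 8000001 to 9000000 replicate 2 had 27 peaks, its highest count, and replicate 1 had 22, its lowest count outside the first 2 Mb. The share of combined peaks found in both replicates ran from 11.3% in the bin from 12000001 to 30.0% in the bin from 14000001.

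By shares of 10 equal parts of the span, peaks varied less along X than along each of chromosomes II to V. The share of X peaks per part ran from 5.60% in the first to 12.2% in the third, and outside the first part it stayed between 8.67% and 12.2%. On chromosome V the shares ran from 4.27% to 19.6% and on chromosome II from 2.61% to 18.9%. Chromosomes III and IV lay between, with highest shares of 14.3% and 14.7%. The SD of the 10 shares was 1.79 percentage points on X and 2.89 to 4.86 on chromosomes II to V. In replicate 1 it was 1.95 on X and 3.02 to 5.17 on the others, and in replicate 2 it was 2.41 on X and 2.96 to 5.27 on the others. By this measure X had the lowest spread of the 5 in each list, whereas by the 1 Mb bins IV was lower in replicate 2. The SD of shares also holds counting error, which falls as peaks become more numerous. X had the most peaks of the 5 in each list, and this was not allowed for.

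**Figure D2:**
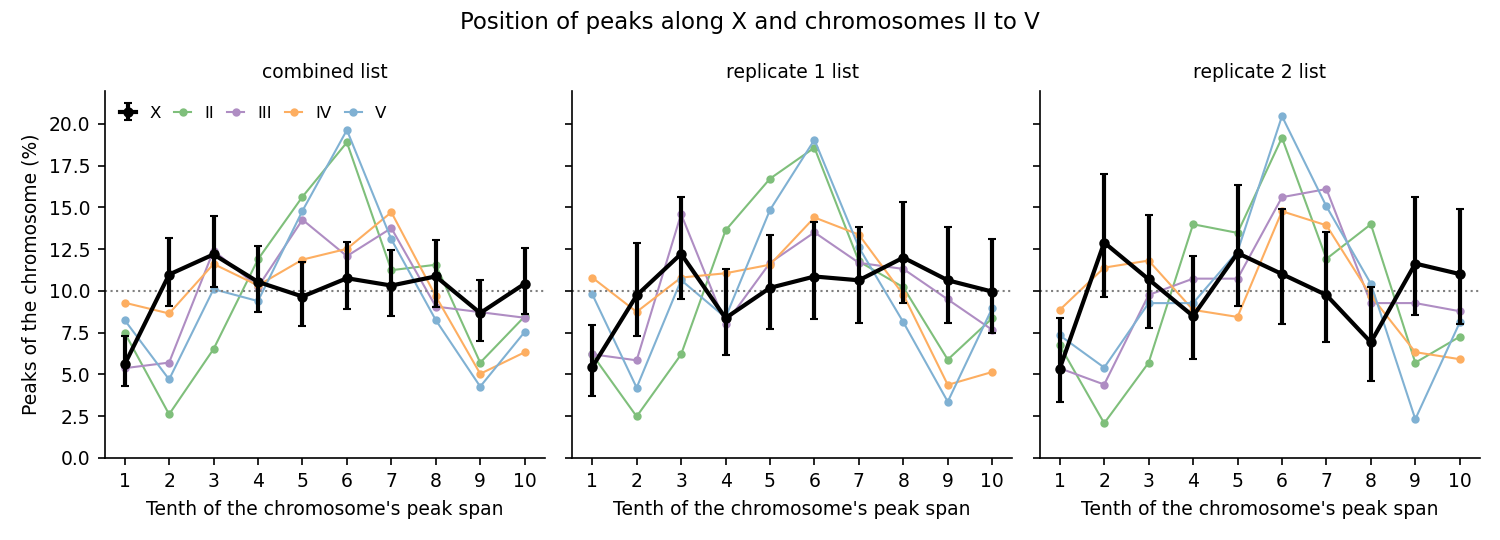
Share of each chromosome's peaks in 10 equal parts of its span, for X (black, with 95% Wilson intervals) and chromosomes II to V (coloured) in the 3 lists; the dotted line marks 10%, the share under uniform placement. X stays near the line outside its first part, while II and V reach 18.9% and 19.6% in the sixth part of the combined list.

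The density ratio of X over chromosomes II to V was higher near the chromosome ends. In the outer 4 of the 10 parts, 2 at either end, X held 325 peaks or 46.8 per Mb, against 718 peaks or 26.7 per Mb on chromosomes II to V, a ratio of 1.75 (exact 95% interval 1.53 to 2.00). In the inner 6 parts X held 586 peaks or 56.3 per Mb, against 1970 peaks or 48.8 per Mb, a ratio of 1.15 (1.05 to 1.27). The intervals of the outer and inner ratios did not overlap, but the difference between the ratios was not tested. In replicate 1 the outer ratio was 1.70 (1.40 to 2.05) and the inner ratio 1.12 (0.979 to 1.28). In replicate 2 they were 2.14 (1.71 to 2.66) and 1.11 (0.937 to 1.30). The inner intervals of both replicates included 1. This division was chosen after seeing the shares by part.

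**Figure D3:**
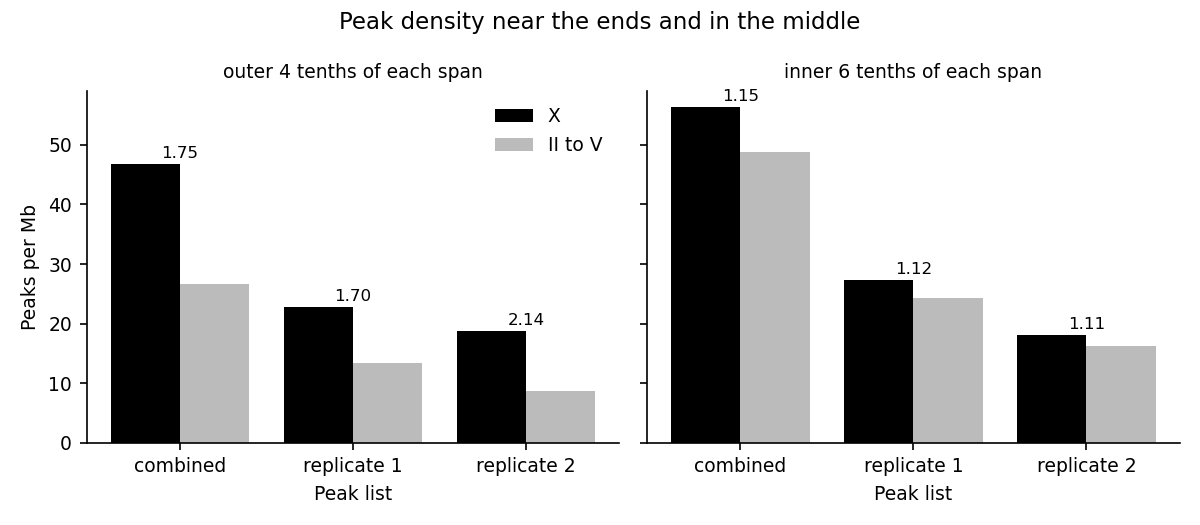
Peaks per Mb on X (black) and chromosomes II to V (grey) in the outer 4 and the inner 6 of 10 equal parts of the spans, for each list; the number over each pair is the ratio of X to II to V. In the combined list the ratio is 1.75 near the ends and 1.15 in the middle.

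Peaks on X had close neighbours about as often as those of chromosomes II to V. Of the 911 X peaks, 497 (54.6%, 95% Wilson interval 51.3 to 57.8) had another midpoint within 5 kb. Uniform placement of 911 points over the span, computed in closed form, gives 40.8%. The observed share was thus 1.34 times that of uniform placement on X, against 1.39 on III, 1.50 on IV, 1.59 on II and 1.87 on V. The ratio depends on the number of peaks, since a denser chromosome has more neighbours under uniform placement too. The shares themselves were 48.99% to 53.9% on chromosomes II to V. Between X and these chromosomes together the share differed by 2.17 percentage points for combined peaks (Newcombe 95% interval -1.58 to 5.90), by 1.95 in replicate 1 (-3.12 to 7.18) and by 1.97 in replicate 2 (-3.92 to 8.11). Each interval included 0. Within the replicate lists, the X share over uniform placement was 1.63 in replicate 1 and 2.03 in replicate 2.

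**Figure D4:**
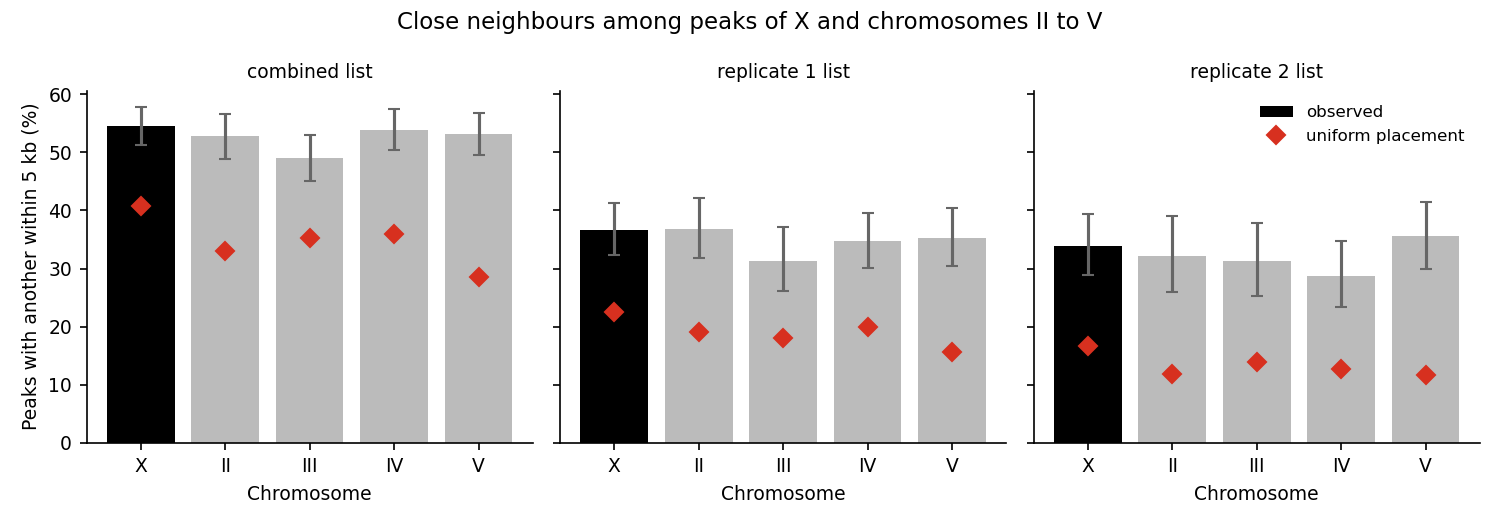
Share of peaks with another peak midpoint within 5 kb on X (black) and chromosomes II to V (grey), with 95% Wilson intervals, and the share under uniform placement (red diamonds), for each list. X has 54.6% against 40.8% under uniform placement in the combined list.

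The ratio to uniform placement on X was highest at 2 kb among the distances tried. Within 2 kb the observed share was 29.2% and that of uniform placement 18.9%, a ratio of 1.54. It was 1.12 within 10 kb and 1.02 within 20 kb. At the smallest distance, 1 kb, the shares were 10.6% and 9.96%. No pair of neighbouring peaks had edges under 200 bp apart, which limits the count at this distance. The highest ratio at 2 kb was not particular to X. Within 2 kb the ratio was 1.62 on III, 1.84 on IV and 2.37 on V, on each the highest of these distances. On II it was 1.54 within 2 kb and highest within 5 kb, at 1.59. When peaks less than 1 kb apart were joined to 1, the 803 joined X peaks gave 42.6% within 5 kb against 37.0% under uniform placement, a ratio of 1.15, against 1.10 on III, 1.25 on IV, 1.42 on II and 1.55 on V.

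Long stretches without a peak were also more frequent on X than under uniform placement, but the longer distances were mostly shorter than on chromosomes II to V. Of the 910 distances between neighbouring X midpoints, 15 exceeded 100 kb, against 4.70 under uniform placement. The median distance was 10936.5 bp, against 13195 bp under uniform placement. The 90th percentile was 45701 bp on X, against 54106 bp on IV, 56877.5 bp on III, 62783 bp on II and 76928 bp on V. The longest distance was 229300 bp on X, above the 202131 bp of III. It was 236970 bp on IV, 522133 bp on II and 532796 bp on V. These distances also depend on the density of peaks, which was not allowed for. The longest stretch between neighbouring peaks, 229 kb from 1627400 to 1856131, lay in the sparse left part of X and held 1 peak of replicate 1. The next, 185 kb from 14102636 to 14287540, and the third, 166 kb from 601890 to 768025, held no peak in any list.

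In the combined list, dense runs held a smaller share of peaks on X than on each of chromosomes II to V, at a similar number of runs. A run is a set of neighbours with midpoints 5 kb apart or less. On X, 8 runs of 5 or more peaks held 45 peaks (4.94%), against 6.88% of the peaks on III, 6.97% on IV, 7.40% on V and 8.47% on II. The numbers of such runs were 8 on III and 9 on each of II, IV and V. With so few runs and no interval given, whether these shares differ beyond counting error was not tested. Runs of 3 or more held 28.4% of X peaks, above the 23.2% of III and below the 29.6% to 33.2% of V, IV and II. Single peaks, with no neighbour in that distance, made up 45.4% of X peaks and 46.1% to 51.0% of those on chromosomes II to V. The largest run of X covered 13.2 kb from 12079756 to 12092959 with 9 peaks, of which 1 was found in both replicates and 5 in neither. The next, from 5188936 to 5202276, had 6 peaks, of which 3 were found in both. The other 6 runs had 5 peaks each, and the first of these along X, from 4068236 to 4076346, had none found in both. The X peak of second lowest q ended another of them, from 8760467 to 8764395, a run named after its values were seen. Over the 8 runs, 9 of the 45 peaks (20.0%) were found in both replicates and 19 (42.2%) in neither, close to the shares over all of X given next.

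Beside the 189 X peaks found in both replicates, 375 (41.2%, 38.01 to 44.4) were found in neither, against 41.4% of the whole combined list. A further 229 X peaks (25.1%) were found in replicate 1 only and 118 (12.95%) in replicate 2 only. On chromosomes II to V, 21.4% were found in both and 41.2% in neither. The difference, X minus II to V, was -0.682 percentage points for both (Newcombe 95% interval -3.65 to 2.46) and -0.0195 for neither (-3.69 to 3.70). Both intervals included 0. Against chromosomes I to V the difference for both turned to 2.35 points. The share found in replicate 2 only was 12.95% on X and 10.4% on II to V, a difference of 2.57 points (0.214 to 5.16), and that found in replicate 1 only was 25.1% on X and 27.0% on II to V, a difference of -1.87 points (-5.08 to 1.48).

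At like q, the share found in both replicates was close on X and on chromosomes II to V, while the share found in neither was lower on X in the group of highest q. The whole combined list was divided into 4 equal groups by q. In the group of lowest q, 155 of 206 X peaks (75.2%) were found in both replicates, against 482 of 642 (75.1%) on chromosomes II to V. In the next group the shares were 14.3% on X and 13.4% on II to V. In the third group 60.7% of X peaks and 58.0% of those on II to V were found in neither, a difference of 2.75 points (Newcombe 95% interval -4.50 to 9.76). In the group of highest q, 0 of 239 X peaks were found in both, which allows a share of up to 1.26%. This limit is 3 peaks over the number of peaks, and the Wilson interval ends at 1.58%. On chromosomes II to V it was likewise 0, of 694 peaks. In the same group 81.6% of X peaks (76.2 to 85.99) were found in neither, against 87.2% (84.5 to 89.5) on II to V, a difference of -5.59 points (-11.4 to -0.426). Of the 8 such differences, both and neither in 4 groups, this was the 1 whose interval did not include 0. The group of lowest q took 22.6% of X peaks and 23.9% of those on II to V, and the median q was 0.000511 on X and 0.000452 on II to V. The order of median q was not the same in every list. In replicate 1 it was 0.00176 on X, above the 0.00131 to 0.00155 of II to V, and in replicate 2 it was 0.00128 on X, below II, IV and V (0.00136 to 0.00146) and above III (0.000878).

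**Figure D5:**
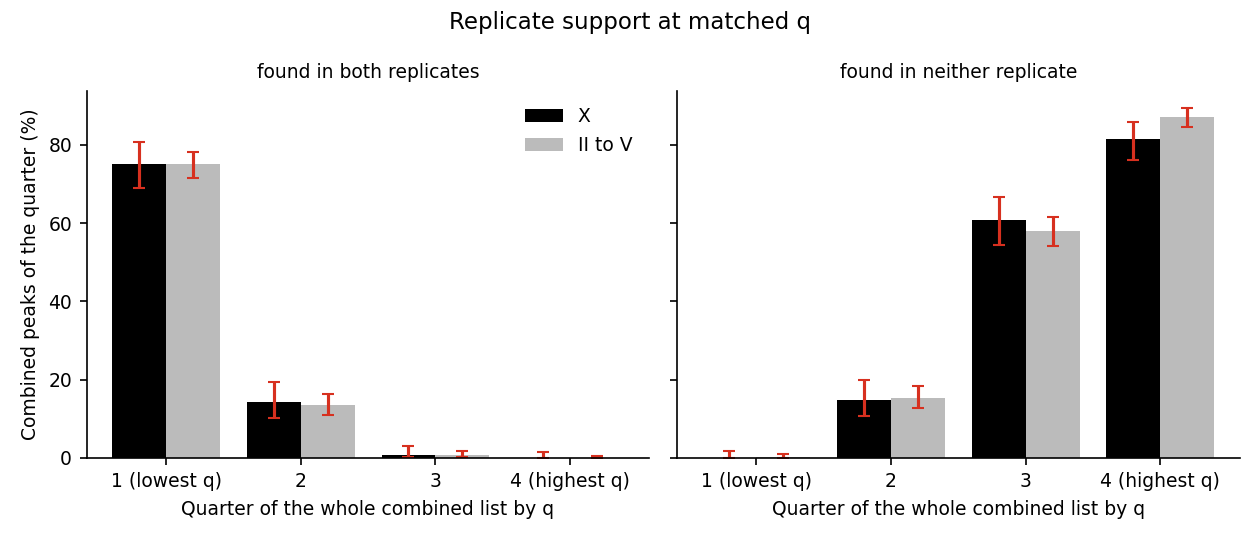
Share of combined peaks found in both replicates (left) and in neither (right), in 4 equal groups of the whole list by q, for X (black) and chromosomes II to V (grey) with 95% Wilson intervals in red. In the group of lowest q, 75.2% of X peaks and 75.1% of those on II to V were found in both.

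Read from the replicate lists, 190 of 442 replicate 1 peaks on X (43.0%, 38.5 to 47.6) overlapped a replicate 2 peak, against 42.9% on chromosomes II to V. Of the replicate 2 peaks on X, 190 of 318 (59.7%, 54.3 to 65.0) met a replicate 1 peak, against 65.7% on II to V. That difference of -5.91 points had an interval of -12.2 to 0.217, which just included 0. Where 1 peak met exactly 1 peak of the other list, the 184 such pairs on X had midpoints a median of 43 bp apart, and 137 of the pairs (74.5%) were within 100 bp. On chromosomes II to V the median was 39.5 bp over 567 pairs, and 79.5% were within 100 bp. The 90th percentile was 185 bp on X and 167 bp on II to V. These pairs were chosen by their overlap, which limits the distance to about the width of a peak. Their widths ranked alike (Spearman rho 0.78 on X and 0.66 on II to V), and their q-values less so (rho of -log10 q 0.34 on X and 0.40 on II to V). These correlations are across pairs of peaks that share libraries. Replicate 1 had the lower q in 96 of the 184 X pairs, and in 346 of the 567 pairs on II to V.

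X peaks were a little wider than those of chromosomes II to V. The median width was 410 bp on X (quartiles 288 and 592), against 365.5 bp on III, 380 bp on IV, 391.5 bp on II and 395 bp on V. The X median exceeded the pooled median of II to V by 27 bp. With the replicate lists it did so by 17.5 bp (replicate 1) and 26.5 bp (replicate 2). X had the highest median of the 5 chromosomes in each list. The share of peaks over 1 kb wide was 7.35% on X (67 peaks) and 7.03% on II to V (189 peaks), a difference of 0.323 points (-1.51 to 2.41).

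Width went with support on X. Peaks found in both replicates had a median width of 576 bp, those found in replicate 1 only 402 bp, in replicate 2 only 414 bp, and those in neither 327 bp. On chromosomes II to V these medians were 530.5, 407, 419 and 301 bp. Of the X peaks over 1 kb wide, 36 of 67 (53.7%, 41.9 to 65.1) were found in both replicates, against 92 of 189 (48.7%, 41.6 to 55.8) on II to V. Of the 28 X peaks under 50 bp, none was found in both, which allows a share of up to 10.7% by the limit of 3 peaks (12.1% by the Wilson interval), and 25 (89.3%) were found in neither. On chromosomes II to V, 0 of the 72 peaks under 50 bp were found in both and 67 (93.1%) in neither. Width also went with q (Spearman rho of width and -log10 q 0.39 over the 911 X peaks, whose values share libraries), and its part in the support was not tested. Support was similar with and without a near neighbour on X. There, 105 of 497 X peaks with another within 5 kb (21.1%, 17.8 to 24.9) were found in both replicates, and 84 of the 414 others (20.3%, 16.7 to 24.4). On chromosomes II to V these shares were 23.5% and 19.1%.

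X peaks that neither replicate list held had q-values of the middle and upper range. The 5 of lowest q ranked 228 to 291 on X. The first, from 2089446 to 2089853, had q = 1.71e-05, and the fifth, from 8995295 to 8996065, had q = 6.17e-05. Every one of the 200 X peaks of lowest q was found in at least 1 replicate, 153 in both, 31 in replicate 1 only and 16 in replicate 2 only.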

How the data were processed

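The authors deposited 1 peak list per replicate and 1 combined list. Per the file headers, the build is WS190 and the caller PeakSeq. The deposited value of each peak is a q-value, none above 0.01. Aligner, caller version and the making of the combined list: not given in the sources used here. All peaks were analysed with Python 3.11.15, NumPy 2.4.6, SciPy 1.17.1 and matplotlib 3.10.9. Peaks overlapped if they shared 1 bp or more. Each chromosome's length was taken as the stretch its peaks spanned over the 3 lists, 17.3 Mb for X. Bins of 1 Mb were counted from base 1 by midpoint, without the incomplete last bin. Uniform placement was computed in closed form. Wilson, Newcombe and exact density intervals (95%) cover counting error of peaks only. Code was tested on simulated lists. The gene table (WBcel235) gave gene numbers per chromosome. A WS190 sequence was not used here, so no sequence or gene is given for a peak. Named are the 10 X peaks of lowest q in both replicates, the 5 of lowest q in neither, the 5 widest, the 3 bins at either extreme, the 3 longest stretches and the 3 largest runs; other bins and runs were named after seeing values. Members, lists and comparisons were chosen with earlier results of these data known.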

Additional observations from a re-analysis of the deposited data

How the results depend on the processing

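No test was run, so a value is given here where it moved by more than the spread between the replicate lists or beyond its own interval; the causes were not tested. The density ratio of X over II to V ran from 1.28 to 1.38 with single replicate lists, and was 1.14 against chromosomes I to V, 1.78 per protein-coding gene, 1.75 in the outer 4 of 10 equal parts and 1.15 in the inner 6. The variance over mean of bin counts on X ran from 1.36 to 1.86 with single replicate lists. It was 1.34 in the 50% of peaks with lowest q, 1.16 for peaks in both replicates, 5.19 in 2 Mb bins, 1.78 with bins shifted by 0.5 Mb, 2.11 with peaks under 1000 bp apart joined and 0.754 without the first 2 Mb. Under uneven placement this value also depends on the mean count per bin. That mean was 51.6 in the combined list, 25.2 in replicate 1, 17.9 in replicate 2 and 10.8 for peaks in both. The values thus do not show which set lay more evenly along X. The share near a neighbour over uniform placement ran from 1.63 to 2.03 with single lists and was 2.06 for peaks in both replicates. The X median width ran from 404.5 to 428.5 bp with single lists, and was 484 bp in the 50% with lowest q and 576 bp for peaks in both replicates; the mean was 516 bp. Its difference from II to V ran from 17.5 to 26.5 bp with single lists, and was 16 bp in the 50% with lowest q and 45.5 bp for peaks in both. With midpoints within 200 bp as the rule, 17.6% of X peaks were found in both replicates, 38.2% of replicate 1 peaks in replicate 2 and 53.1% in the other direction. In the 50% with lowest q, 43.5% were found in both and 7.67% in neither. The divisions of the span and the removal of the first 2 Mb were added after seeing the data. The other 42 values computed under alternatives moved less, but against I to V the difference in the share found in both turned from -0.682 to 2.35 points, and with overlap of 50% of the shorter peak that in neither turned from -0.0195 to 0.0903; the main intervals of both include 0. Support shares need both replicate lists, so neither could be left out there. No paired analysis was possible because each replicate has 1 list and the input libraries carry only number 2. The depth of the libraries is unknown, and mappability was not allowed for.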

Other observations

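A small number of replicate peaks on X were missing from the combined list. Of the 442 replicate 1 peaks on X, 20 overlapped no combined peak, and of the 318 replicate 2 peaks, 6 did not. The share of replicate 1 peaks that did overlap a combined peak was 95.5% on X (95% Wilson interval 93.1 to 97.1). It was 97.5% on chromosomes II to V (96.5 to 98.2) and 97.1% over all chromosomes. In replicate 2 the share was 98.1% on X, 97.8% on II to V and 98.0% over all chromosomes. Whether these shares differ beyond counting error was not tested. The 20 were 4 to 533 bp wide with a median of 204 bp and a median q of 0.00753, and 5 of them were under 50 bp. The 6 were 32 to 646 bp wide with a median q of 0.00774. The lowest q among them was 0.00105 in replicate 1 and 0.00632 in replicate 2.

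The share of combined X peaks found in neither replicate also differed between bins, which were chosen here after their values were seen. Combined peaks found in neither replicate made up 53.4% of the bin from 6000001 to 7000000, the highest share of the 17 full bins, and 29.4% of the bin from 10000001 to 11000000, the lowest. These bins held 58 and 51 combined peaks, and whether the shares differ beyond counting error was not tested. The bin from 6000001, which holds the widest peak of X, had the lowest median width, 337 bp.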
